A study of Mus musculus with 2 samples.

Results

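The guide arms of the miR-99, miR-100 and miR-125 families were examined in ureteric bud cells of the embryonic mouse kidney. They were chosen by name as the array probes for mmu-miR-99a, mmu-miR-99b, mmu-miR-100, mmu-miR-125a-5p and mmu-miR-125b-5p, written without the species prefix from here on, which gave 5 probes of 1040 mouse miRNA probes. This epithelial tube branches into the kidney and gives rise to its collecting ducts. The study measured a single group of 2 samples, and each sample was hybridised to a miRNA array, replicate 1 with Cy3 and replicate 2 with Cy5. Both samples came from Rosa26YFP; Hoxb7Cre embryos at stage E15.5, in which the Cre recombinase follows Hoxb7, a gene active in this epithelium, and switches on a yellow fluorescent reporter at Rosa26. The kidneys were dissociated with trypsin and the fluorescent cells were sorted. No other genotype, age or cell type was analysed here, so the question was which of these miRNAs stood above the blank level of the arrays and how far the samples differed. Nothing in the labels says that the samples came from separate litters or preparations, or how many embryos were pooled, and sample and dye cannot be told apart.

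These miRNAs lie in clusters that also hold a let-7 gene, an arrangement conserved from flies to mammals. The miR-125 family is the vertebrate counterpart of lin-4 of Caenorhabditis elegans, the miRNA that controls developmental timing there, and represses Lin28, the protein that blocks let-7 maturation. The miR-99 and miR-100 family is known for repressing Mtor and Igf1r, components of the growth signalling pathway. A miRNA finds its targets mainly through its seed, here bases 2 to 8, and the hairpin's other arm is usually degraded.

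The targets of the 5 probes are shown because the results turn on how closely they resemble each other, with the seed in capitals and each sequence written 5′ to 3′.
miR-99a: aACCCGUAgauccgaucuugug
miR-100: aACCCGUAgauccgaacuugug
miR-99b: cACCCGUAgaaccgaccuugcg
miR-125a-5p: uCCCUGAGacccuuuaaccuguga
miR-125b-5p: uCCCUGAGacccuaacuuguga
All 5 targets were identical to a mature miRNA of RefSeq (build GRCm38.p6). The first 3 share the seed ACCCGUA and the other 2 the seed CCCUGAG. The miR-99a and miR-100 targets differ at 1 base, U16A, counted from 1 at the 5′ end with the miR-99a base first. Against miR-99a, the miR-99b target carries 4 substitutions, A1C, U11A, U16C and U21C. The miR-125a-5p and miR-125b-5p targets share their first 13 bases and lie 3 edits apart, an edit being a base substituted, inserted or deleted.

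The genes fall in 3 clusters. On chromosome 17, miR-99b (chr17:17830194-17830215, plus strand) and miR-125a-5p (chr17:17830817-17830840, plus strand) flank let-7e. The 3 guide arms start within 623 bases of each other, inside the span of the protein-coding gene Spaca6. On chromosome 16, miR-99a (chr16:77598940-77598961, plus strand) is followed by let-7c at 732 bases and by 1 of the 2 genes of miR-125b-5p (chr16:77646279-77646300, plus strand) at 47339 bases. On chromosome 9, miR-100 (chr9:41531437-41531458, plus strand) and the other miR-125b-5p gene (chr9:41581940-41581961, plus strand) lie 50503 bases apart within the long non-coding RNA gene Mir100hg, with let-7a-2 between them. The mature miR-125b-5p of both genes is the same, so its probe reads them together.

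Each array held 560 blank spots, with a mean raw intensity of 203.9 ± 33.1 in replicate 1 and 58.9 ± 7.42 in replicate 2 (SD over spots). The detection limit was set at 3 SD above the blank mean, which came to 303.2 units in replicate 1 and 81.1 in replicate 2, and a probe counted as detected in a sample with 50% or more of its 3 repeat spots above it. Among the epithelial markers of the miR-200 family 3 of 5 were detected in both samples. Of 16 markers of mesenchyme, endothelium, blood and nephron, 0 were detected in both samples and 1, miR-214, in replicate 2 only. Over all 1040 probes 5.96% were detected in both samples. The medians of the 16 markers of other cell types spanned 205.7 to 281.0 units in replicate 1, and 44.4 to 88.0 units in replicate 2.

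Of the 5 guide arms, 3 were detected in both samples (miR-99b, miR-125a-5p and miR-125b-5p) and 2 in neither (miR-99a and miR-100), where 5.96% of all 1040 probes were detected in both. Both guide arms of the chromosome 17 cluster were therefore above the limits, and miR-99a, encoded only on chromosome 16, and miR-100, encoded only on chromosome 9, were below them. These miRNAs were chosen with earlier results known, so this count carries no test. Probes differ in affinity, and their intensities give no order of abundance between miRNAs.

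**Figure D1:**
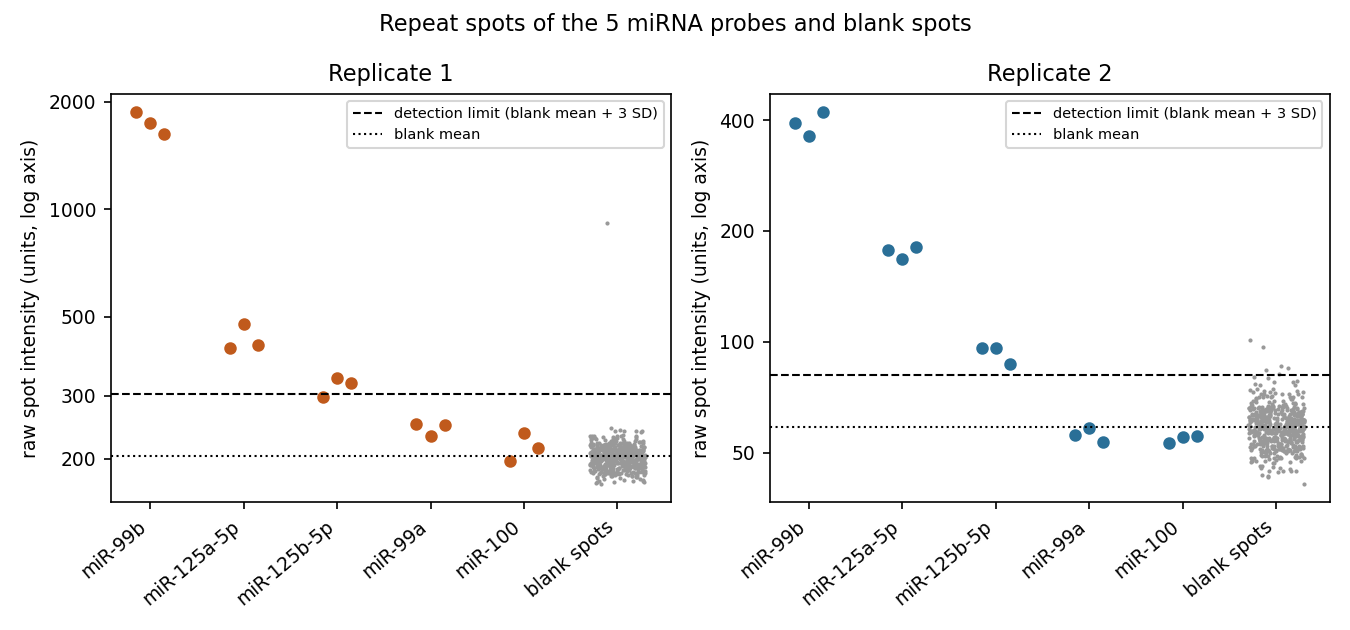
Raw intensity of each repeat spot (vertical log axis, intensity units) for the 5 guide-arm probes and for the 560 blank spots of each array; the dashed line is the detection limit and the dotted line the blank mean. All spots of miR-99b and miR-125a-5p lie above the limit in both arrays, those of miR-125b-5p lie around it, and those of miR-99a and miR-100 lie below it.

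The probe for miR-99b gave 1869, 1744 and 1626 units at its repeat spots in replicate 1, and 391.7, 362.5 and 420.4 units in replicate 2. All 6 spots were far above the limits, the median spot being 5.75 and 4.83 times the limit of its array. After normalization between the arrays its signal stood 3.40 ± 0.66 log2 units above the blank level (SD, n = 2), a fold of 10.6. The size of this value depends on the background correction, which here adds an offset of 50 units. With the median blank subtracted in its place, the signal over blank was 8.45 log2 units for miR-99b, 6.14 for miR-125a-5p and 4.85 for miR-125b-5p, values that rest on a median blank set to the floor of 1 unit before normalization. With the offset of 50 units, miR-99b was more than 2-fold above blank by the treat test of limma (Benjamini-Hochberg over all miRNA probes, adjusted p = 1.03e-12). In all, 36 probes passed, 3.46% of the array. That test pools the spread over all probes of like signal, so a small p does not stand for many samples. With that offset none of the other 4 guide arms passed it, while 2 of the 5 had an unadjusted p under 0.05, as did 4.33% of the array. With no normalization between the arrays, or with each array shifted to a common median, miR-99b did not pass either (limma's treat, unadjusted p = 0.049), where 2 probes of the array passed.

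The probe for miR-125a-5p gave 408.1, 477.6 and 416.4 units in replicate 1 and 177.1, 167.5 and 180.6 units in replicate 2. Every spot was above the limit, by a modest margin in replicate 1 (1.37 times for the median spot) and a wider one in replicate 2 (2.18 times). Its normalized signal was 1.68 ± 0.48 log2 units above blank (SD, n = 2), higher than blank in 2 of 2 samples. This missed the threshold by limma's treat test (adjusted p = 0.335, unadjusted p = 0.0132).

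The probe for miR-125b-5p, the form read from 2 genes, gave 298.0, 337.4 and 325.8 units in replicate 1 and 96.5, 96.2 and 87.0 units in replicate 2. These are values close to the limits, with 2 of 3 spots above it in replicate 1 and 3 of 3 in replicate 2. The normalized signal was 1.001 ± 0.11 log2 units above blank (SD, n = 2), at the 2-fold bound of limma's treat test itself (unadjusted p = 0.498). A limit of 6 blank SD, or the demand that all repeat spots pass, took miR-125b-5p off the detected list and left miR-99b and miR-125a-5p on it.

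The probe for miR-99a gave 250.9, 231.0 and 248.6 units in replicate 1 and 55.9, 58.4 and 53.6 units in replicate 2, with 0 of 6 spots above the limits. In replicate 1 the median spot lay above 99.8% of the blank spots and at the upper edge of the 956 probes detected in neither sample, whose 5th and 95th percentiles were 206.9 and 243.9 units. In replicate 2 it lay above 35.4% of the blank spots, that is, below their median. The undetected probes ran lower than the blank spots there, with a median of 52.8 units and 5th and 95th percentiles of 47.3 and 60.4. At 55.9 units the median spot of miR-99a was above the median of those probes and within that range. The limit of replicate 1 is widened by the brightest of its blank spots, at 916.8 units, while the next brightest lay at 243.2. Without it the limit is 243.5 units and miR-99a counts as detected in replicate 1 but still not in replicate 2.

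The probe for miR-100 gave 196.8, 235.9 and 214.4 units in replicate 1 and 53.0, 55.3 and 55.6 units in replicate 2. Its spots were mixed in among the blank spots of both arrays. The normalized signal was 0.023 ± 0.16 log2 units from blank for miR-100 and 0.21 ± 0.40 for miR-99a (SD, n = 2). Neither miRNA was above the limits in both samples under any limit tried, and miR-99a exceeded the 95th percentile (226.1 units) and the 99th percentile (238.4 units) of blank spots in replicate 1 but neither percentile in replicate 2. Whether the cells lacked these miRNAs is not shown. Over the 5 guide arms the median signal over blank was 1.001 log2 units, and over all 1040 probes it was 0.031.

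**Figure D2:**
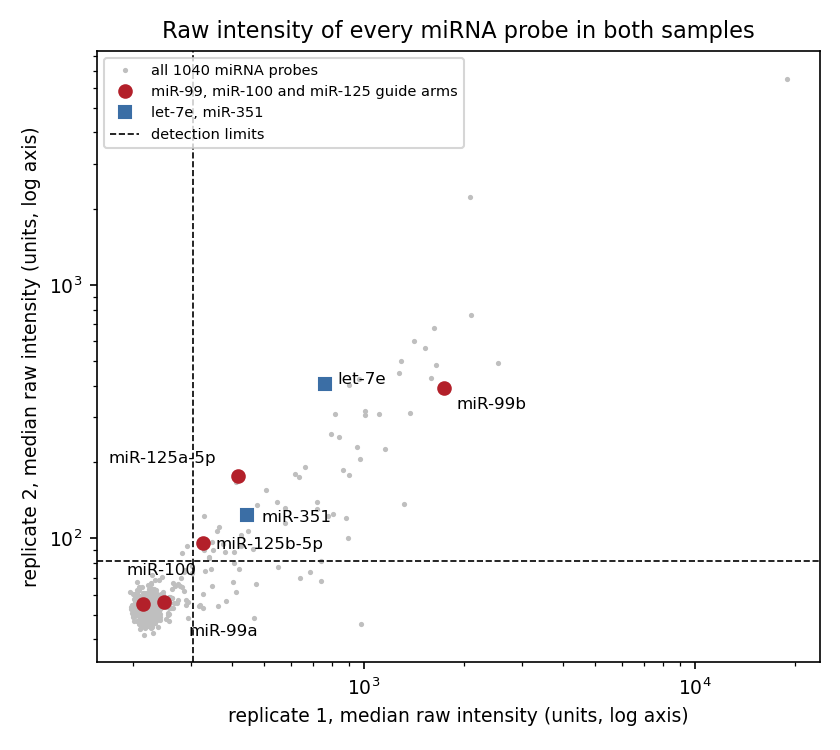
Median raw intensity of every miRNA probe in replicate 1 (horizontal log axis) and replicate 2 (vertical log axis), with the guide arms as red circles, let-7e and miR-351 as blue squares and the detection limits as dashed lines. The probes for miR-99b, miR-125a-5p and miR-125b-5p lie above both limits. The miR-100 probe lies within the cloud of undetected probes, and miR-99a lies at the upper edge of that cloud in replicate 1.

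The 6 opposite arms on the array were then examined, namely miR-99a*, miR-99b*, miR-100*, miR-125a-3p, miR-125b-1-3p and miR-125b-2-3p. Of these, 0 were detected in either sample and 0 passed limma's treat test, with 0 at an unadjusted p under 0.05. Over all 1040 probes, 5.96% were detected in both samples, 3.46% passed and 4.33% had such an unadjusted p. A count of 0 among 6 is near those shares and sets these arms apart from no other probes. Their medians spanned 212.0 to 224.7 units in replicate 1, and 47.7 to 59.0 units in replicate 2. The arms miR-125b-1-3p (220.1 and 50.8 units) and miR-125b-2-3p (223.9 and 47.7 units) are the only probes of the array that would tell the chromosome 9 gene of miR-125b from the chromosome 16 gene. Neither was detectable, so the miR-125b-5p signal could not be assigned to a gene.

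The let-7 miRNA of each cluster was detected in both samples. The let-7e probe, whose gene is the middle of the chromosome 17 cluster, read 761.2 units in replicate 1 and 406.7 units in replicate 2. The let-7c probe gave 900.2 and 404.8 units and the let-7a probe 963.7 and 424.0 units, both from miRNAs that also have genes outside these clusters. Signals over blank were 2.62 ± 0.53, 2.80 ± 0.25 and 2.93 ± 0.15 log2 units (SD, n = 2), and all 3 passed limma's treat test. On chromosome 17 all 3 guide arms of the cluster were thus detected. On chromosomes 16 and 9 the miRNA that leads the cluster was below the limits in both samples while the let-7 and miR-125b-5p probes were above them. The targets of let-7e and let-7a differ at 1 base, as do those of let-7c and let-7a, so signal may be shared between these probes, which was not tested.

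**Figure D3:**
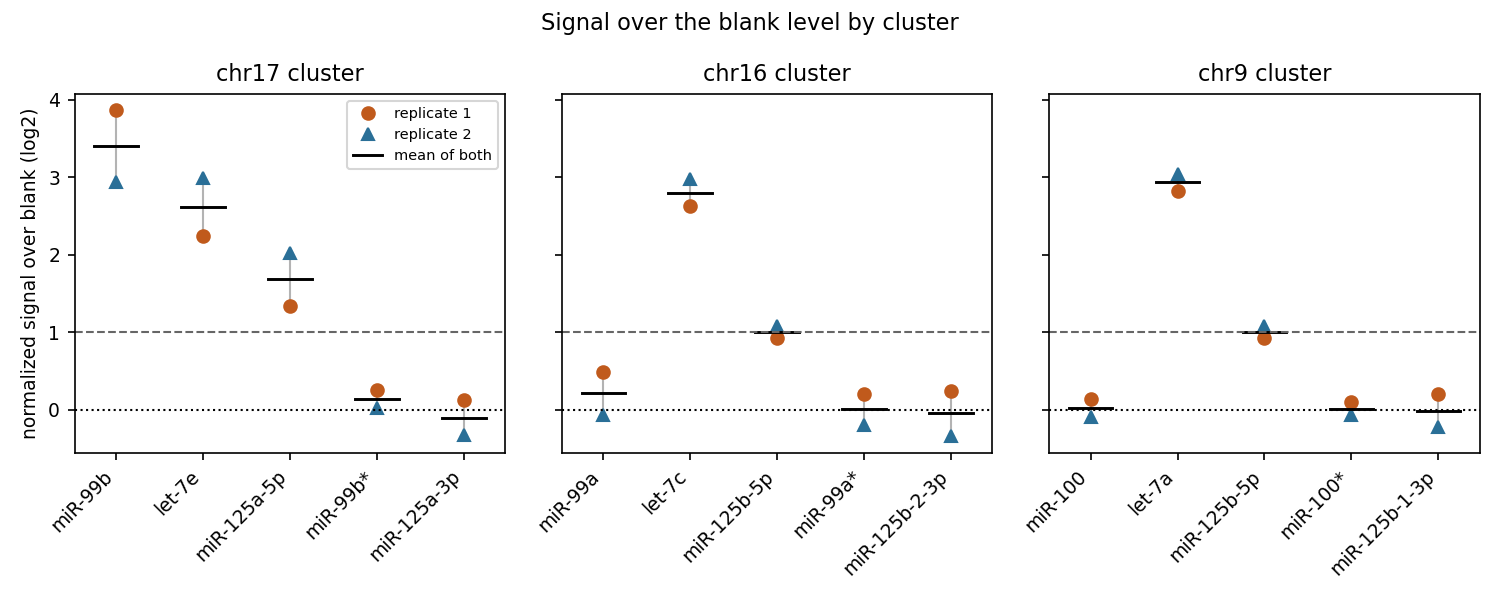
Normalized signal over the array's blank level (vertical axis, log2 units) for the guide and opposite arms of each cluster, with circles for replicate 1, triangles for replicate 2 and a bar at their mean; the dotted line marks the blank level and the dashed line 2-fold above it. The miR-125b-5p probe reads 2 genes and is drawn in both of their clusters. All 3 guide arms of the chromosome 17 cluster lie more than 2-fold above blank in both samples, whereas miR-99a, miR-100 and all opposite arms lie near the blank level.

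Because the targets of these families are alike, probes of related sequence were examined beside them. The miR-10 miRNAs, encoded in the Hox clusters, are relatives of miR-99 and miR-100, and 1 further probe, miR-351, has the seed of miR-125. The miR-351 gene lies on the X chromosome, apart from the let-7 clusters. These targets are shown for comparison, again with bases 2 to 8 in capitals.
miR-10a: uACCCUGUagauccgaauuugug
miR-10b: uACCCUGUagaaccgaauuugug
miR-351: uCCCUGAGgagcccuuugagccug
The miR-100 target lies 3 edits from miR-10a and 4 from miR-10b and miR-99b. The probes for these relatives gave 1005.9 and 317.6 units (miR-10a), 1292.4 and 502.1 units (miR-10b) and 1744 and 391.7 units (miR-99b) in replicates 1 and 2. At 214.4 and 55.3 units the miR-100 probe stayed at the blank level beside them. Likewise miR-99a lies 4 edits from both miR-99b and miR-10a and was below the limits in both samples.

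The miR-125a-5p and miR-125b-5p targets lie 3 edits apart and were both detected, so the share of the miR-125b-5p signal that comes from miR-125a-5p was not tested. No other miRNA target on the array was within 6 edits of miR-125a-5p. The miR-351 probe was detected in both samples, at 478.4, 443.7 and 433.2 units in replicate 1 and 133.3, 123.2 and 122.2 units in replicate 2. It lies 7 edits from miR-125a-5p and 10 from miR-125b-5p, with the first 8 bases in common with each. Its normalized signal was 1.51 ± 0.08 log2 units above blank (SD, n = 2), which did not pass limma's treat test (unadjusted p = 0.0492). All 3 probes with the miR-125 seed were detected in both samples, as were 1 of the 3 probes with the miR-99 seed and 5.96% of all 1040 probes. The miR-125b-5p probe was close to the limits, its median spot being 1.07 and 1.19 times the limit in replicates 1 and 2. A difference between the 2 families was not tested.

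**Figure D4:**
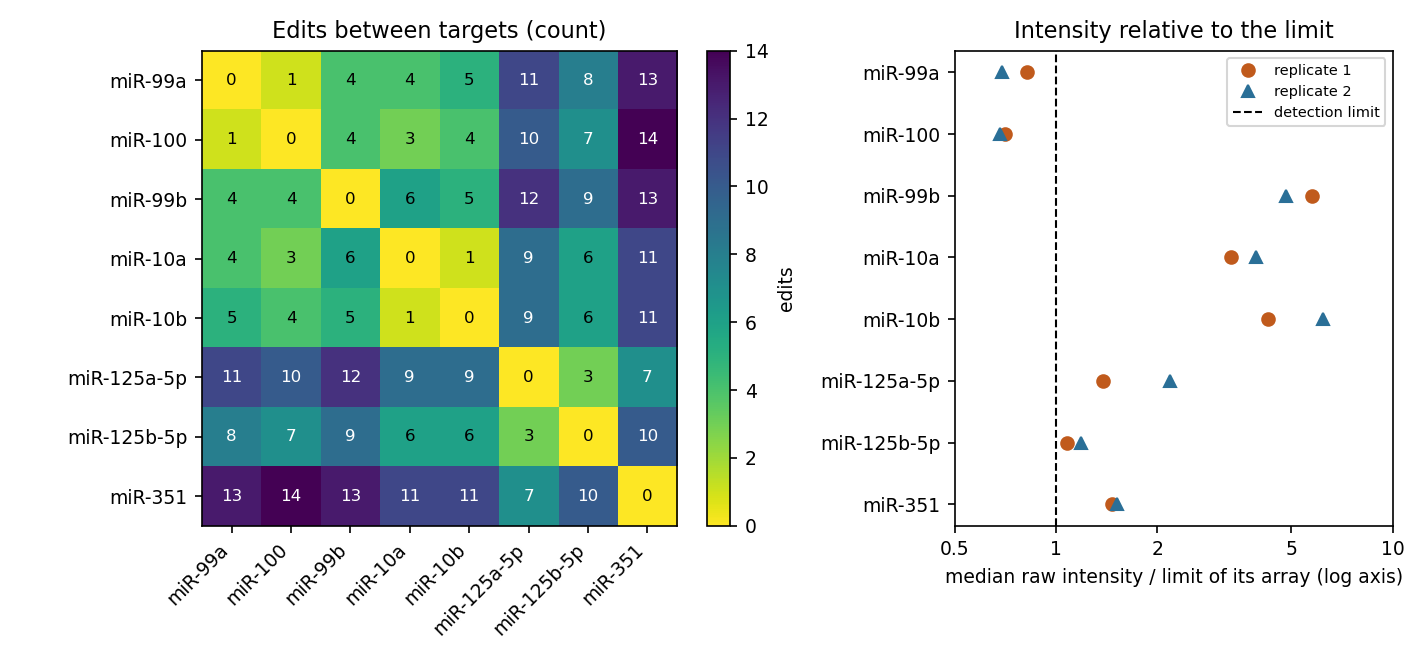
Left, number of edits between the targets of the guide arms and of their relatives; right, median raw intensity divided by the detection limit of its array (log axis), with circles for replicate 1 and triangles for replicate 2. The miR-99a and miR-100 probes lie left of the limit in both arrays although targets 3 or 4 edits away lie well to its right.

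The samples differed in overall brightness, and the guide arms did not follow that difference equally. With the median blank of each array subtracted, replicate 1 over replicate 2 was 4.62 for miR-99b, 3.24 for miR-125b-5p and 1.80 for miR-125a-5p. The undetected probes had medians of 222.1 and 52.8 units in replicates 1 and 2, beside median blanks of 203.1 and 58.4. Ratios of dim probes such as miR-125b-5p thus depend on the background taken. The median ratio over the 62 miRNAs detected in both samples was 3.74, and only 2 of the 62 had a ratio below that of miR-125a-5p. One of them was let-7e, at 1.60, from the same cluster. The let-7c and let-7a probes were low as well, at 2.01 and 2.08, with 5 and 6 of the 62 below them. A low ratio was therefore not particular to the chromosome 17 cluster, whose miR-99b was above the median. After normalization the log2 difference, replicate 1 minus replicate 2, was 0.53 for miR-99b, -0.56 for miR-125b-5p, -1.08 for miR-125a-5p and -1.16 for let-7e, beside a median of -0.20 over the detected miRNAs. Among the 3 detected guide arms, miR-125a-5p was at least 2-fold apart, where 12.9% of the 62 detected miRNAs were.

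None of these differences has a replicate check, since each dye was used for 1 sample. The sign for miR-99b was positive under every way of processing tried. With the arrays left without normalization the signs of miR-125a-5p, miR-125b-5p and let-7e turned, to 0.65, 0.94 and 0.62, while miR-99b stood at 2.02. There the median difference was 1.43 over the 62 detected miRNAs and 0.69 over all probes, so miR-125a-5p and let-7e lay below the median of the detected miRNAs in those values too. A shift of each array to a common median left miR-125a-5p at -0.041 and let-7e at -0.078, and turned miR-125b-5p to 0.25. Within the chromosome 17 cluster, the gap between probes of the same arrays cancels any shift of a whole array by construction. The difference of miR-99b exceeded that of miR-125a-5p by 1.61 log2 units in the normalized values and by 1.17 to 2.34 over the other ways of processing, of which the loess gap was smallest and that with subtraction of the median blank largest. It exceeded that of let-7e by 1.69, and by 1.33 to 2.07 over the same alternatives. Differences of miR-125a-5p and let-7e lay within 0.27 of each other throughout. This gap was picked out after the values were seen, and it rests on 1 array per dye.

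**Figure D5:**
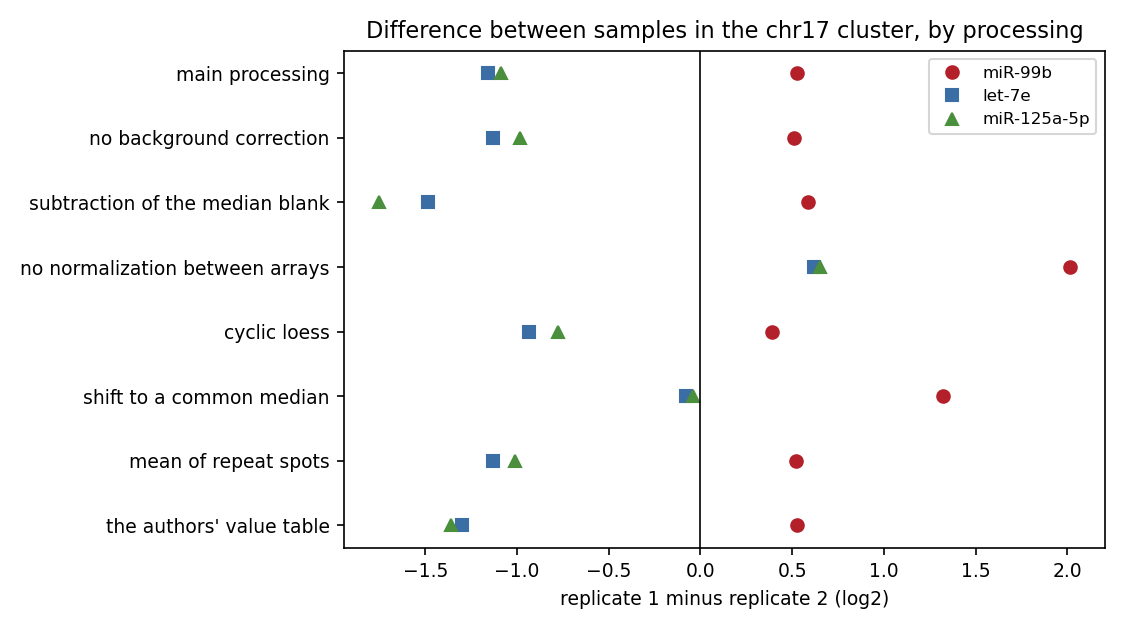
Difference between the samples, replicate 1 minus replicate 2 (horizontal axis, log2 units), for the 3 guide arms of the chromosome 17 cluster under each way of processing (rows). In every row miR-99b lies to the right of let-7e and miR-125a-5p, which lie close together, while the distance of all 3 from 0 moves with the normalization and only miR-99b stays to the right of 0 throughout.

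By likeness of the difference between samples, a single number per miRNA, the 3 detected miRNAs nearest to miR-125a-5p were let-7f (-1.04), let-7e (-1.16) and miR-183 (-1.01). Those nearest to miR-99b, at 0.53, were miR-320 (0.50), miR-1937b (0.45) and miR-762 (0.41). For miR-125b-5p they were miR-429 (-0.57), let-7b (-0.58) and miR-30c (-0.60). Likeness over 2 samples describes these arrays and nothing more.

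The authors' deposited value table gave 3210 and 2228 units for miR-99b in replicates 1 and 2, 370 and 951 for miR-125a-5p and 166 and 373 for miR-125b-5p. The same table gave 54 and 47 for miR-99a and 10 and 17 for miR-100. Its column medians were 10 and 9 units. The 62 miRNAs detected in the raw spots, which include these 3 guide arms, had values of at least 93 and 73 units there, and miR-99a and miR-100 lay below both values.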

How the data were processed

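Profiling of small RNA from 2 samples of sorted ureteric bud cells was done by a service provider on miRNA arrays, per the labels' protocols. The authors deposited the mean raw intensity of every spot, per the file headers, with no background subtracted, since blank spots lay well above 0. They also deposited a value table of 1 whole-number intensity per miRNA and sample. From its values it is on a linear scale, where undetected miRNAs have medians of 9 and 8 units, and its background correction and scaling were not stated in the labels or headers. It was used as an alternative only.

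Detection used raw intensities against the blank spots of the same array. For signal levels, intensities were corrected with normexp (offset 50, fitted on all spots), log2-transformed, quantile-normalized over miRNA spots, and summarised per probe by the median of its repeats. The array's median blank, carried through the same map, was subtracted. Signal over blank was tested over 1040 miRNAs with limma's treat function (2-fold bound, variance trend, adjusted p threshold 0.05; limma 3.58.1, R 4.3.3), after a check on simulated data. The miRNAs named were the 5 guide arms, their opposite arms, the let-7 miRNAs beside them, probes with the same seed, miR-10a and miR-10b, cell type markers and the 3 detected miRNAs nearest in difference to each guide arm. The members and lists were chosen with earlier results of these data known. P-values rest on a spread between the 2 samples that is pooled over probes of like signal, not on that of each miRNA alone. This spread may be technical, and the number of arrays limits the precision. Gene positions and sequences came from RefSeq (GRCm38.p6).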

Additional observations from a re-analysis of the deposited data

How the results depend on the processing

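The 3 guide arms detected in both samples stayed 3 with the 95th or 99th percentile of blank spots, without the brightest blank spot and in either sample alone (3 to 3). In the authors' deposited value table the count was 3 too. At least 3 was fixed by construction, since the cut-off was the lowest value among the detected miRNAs. The miR-99a and miR-100 probes could have passed and did not, where 81 of all 1040 probes passed. The 3 guide arms became 2 with a limit of 6 blank SD or with all repeat spots required. They became 1, miR-99b, with 10 blank SD, where the 62 miRNAs detected over the array became 33. By limma's treat test the count of 1, miR-99b, held with no background correction, loess, the mean of repeat spots, a 4-fold bound and no variance trend. It became 3 with subtraction of the median blank (65 probes over the array, against 36, with values under 1 unit set to 1). The count was 2 when only probes detected in at least 1 sample were tested (44 over the array). Those probes were kept for standing above the blank spots of these same arrays, so that count adds no support. There were also fewer probes to adjust for, and the pooled spread was fitted anew on them. The count was 0 with no normalization or a shift of each array to a common median (2 probes over the array, 1 guide arm at an unadjusted p under 0.05). The 4-fold bound gave 13 over the array. The count at least 2-fold apart, 1 (miR-125a-5p), became 0 with no background correction or loess and 2 with subtraction. It stayed 1 with no normalization or a median shift, but there the miRNA was miR-99b. In the authors' deposited value table the difference was 0.53 for miR-99b, -1.36 for miR-125a-5p and -1.17 for miR-125b-5p. The difference between samples turned to 0.50 for miR-100, 0.65 for miR-125a-5p and 0.94 for miR-125b-5p with no normalization, and to 0.25 for miR-125b-5p with the median shift. Left to a single sample, signal over blank ranged from -0.068 to 0.49 for miR-99a and from -0.089 to 0.13 for miR-100. Beyond what the fewer probes or the spread of blank values set by construction, the cause was not tested. The ratio of blank-subtracted intensities was added after seeing the data. No paired analysis was possible because the study has 1 group. Signal over background limits what can be said of miR-99a and miR-100.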

Other observations

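Near-identical targets were counted over the whole array, with pairs chosen by sequence after the values of miR-99a and miR-100 were seen. Of 12 pairs of miRNA targets 1 edit apart with at least 1 miRNA detected in both samples, both were detected in 8. This held for 10 of 18 pairs at 2 edits, 11 of 22 at 3 edits, 11 of 26 at 4 edits and 5 of 18 at 5 edits. Among the pairs 1 edit apart with only 1 detected were miR-17 and miR-106a, miR-181a and miR-181c, and miR-30d and miR-30a. Many of the pairs with both detected lie within the let-7 family, so the pairs are not independent, and these counts describe the 2 arrays only.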
